A study of Arabidopsis thaliana with 41 samples.

Results

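The genes of the histone variant H2A.Z and of the SWR1 complex, which places H2A.Z in chromatin, were followed through the RNA-seq libraries of NuA4 and GLK mutants of Arabidopsis thaliana. The 10 genes were picked by locus identifier out of the 32865 genes of the tables of counts and of TPM (transcript abundance per length), by what they encode and not by any measured value. Earlier results of these data were known at the time. The 10 genes are the H2A.Z genes HTA8, HTA9 and HTA11, the SWR1 genes PIE1, SEF and ARP6, and the genes SWC4, ARP4, YAF9A and YAF9B, whose products occur in SWR1 and in the acetyltransferase NuA4. All 10 passed the filter on low counts in each comparison.

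SWR1 uses the energy of ATP to replace H2A in a nucleosome with H2A.Z. In Arabidopsis, H2A.Z is found mainly in the nucleosome after the transcription start of active genes and along the bodies of genes that respond to the environment, and plants that lack it or SWR1 are known for early flowering and active defence genes. NuA4 acetylates the tails of histone H4 and H2A.Z, and the question behind the mutants was what plants lose with that complex.

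All plants were of the Col-0 background, grown in long days, and each library was made from rosette leaves pooled from several plants. Atepl1-2 carries Cas9-made deletions in both AtEPL1 genes, which encode the scaffold of the NuA4 catalytic module, and its double homozygotes are sterile. Ateaf1-1 is 1 Cas9 line in which both tandem copies of AtEAF1, the NuA4 platform subunit, are disrupted. The glk plants are the glk1-1 glk2-1 double mutant, with transposon insertions in 2 transcription factor genes of chloroplast development and with no allele in a NuA4 gene, and the WT plants carry none of these alleles.

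The 16 RNA-seq libraries bear labels of 2 kinds, and how the 2 sets differ is not stated there. The first label set holds Atepl1-2 replicates 1, 3 and 4 and WT replicates 5, 7 and 8. The second holds Atepl1-2 replicates numbered 1, 3 and 4 again, replicates 1 to 3 of Ateaf1-1 and of glk, and WT replicate 4 as its 1 WT library. Atepl1-2 of the first set was compared with the 3 WT libraries of that set. The other mutants were compared with all 4 WT libraries, so these comparisons share their controls, and label set and genotype are partly confounded there.

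The libraries held 22330141 to 30781762 estimated counts in the first set and 36533765 to 39666320 in the second. Chloroplast genes took 53.6 to 55.9% of the counts in Atepl1-2 of the first set, 44.9 to 54.9% in Atepl1-2 of the second, 40.2 to 50.2% in Ateaf1-1 and 61.4 to 64.5% in glk, against 60 to 65.6% in WT. Leaf mesophyll markers summed to between 1370 and 3646 TPM in every group, and seed markers to at most 0.402 TPM. Flower and epidermis markers differed between groups and are given beside the H2A.Z genes. GLK1 stood at 7.70 to 8.74 CPM (counts relative to library size) in glk libraries, against 48.5 to 69.9 CPM in WT, while GLK2 overlapped with WT. Both AtEAF1 genes were below WT in every Ateaf1-1 library. The AtEPL1 genes, whose deletions lie in the 5′ portion of the coding region, differed between the Atepl1-2 sets. EPL1A had 4.84 to 5.25 CPM in Atepl1-2 of the first set, above the 1.86 to 2.84 CPM in WT of that set, and 1.90 to 2.13 CPM in Atepl1-2 of the second set, below the 3.08 CPM in WT replicate 4. EPL1B had 11.2 to 14.9 CPM in Atepl1-2 of the first set, against 3.14 to 3.25 CPM in WT of that set, and 5.87 to 6.69 CPM in Atepl1-2 of the second, against 5.17 CPM in WT replicate 4.

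The coordinates that follow are those of the TAIR10.1 assembly, with RefSeq gene models. HTA8 (AT2G38810) lies on the minus strand of chromosome 2 between 16219220 and 16220928 with 3 exons, HTA9 (AT1G52740) on the plus strand of chromosome 1 between 19645236 and 19646485 with 2 exons, and HTA11 (AT3G54560) on the plus strand of chromosome 3 between 20196140 and 20197726 with 2 exons. PIE1 (AT3G12810) runs on the plus strand of chromosome 3 between 4065042 and 4074194 with 20 exons, and its longest transcript of 6964 bases is by far the longest of the 10 genes. SEF (AT5G37055) is on the minus strand of chromosome 5 between 14641442 and 14642513 with 4 exons, and ARP6 (AT3G33520) on the minus strand of chromosome 3 between 14093656 and 14095588 with 6 exons. SWC4 (AT2G47210) occupies the plus strand of chromosome 2 between 19377719 and 19382436 with 17 exons, and ARP4 (AT1G18450) the plus strand of chromosome 1 between 6348048 and 6352010 with 20 exons. YAF9A (AT5G45600) lies on the plus strand of chromosome 5 between 18487798 and 18489869, YAF9B (AT2G18000) on the plus strand of chromosome 2 between 7828976 and 7830898, and both have 6 exons.

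None of the 31-base words of the transcripts of these 10 genes occurs in a transcript of another gene, so the paralogs can be told apart in the counts. The coding sequences of HTA8 and HTA11 are 81.8% identical, with a longest shared run of 29 bases, HTA9 and HTA11 are 74.5% identical, and HTA8 and HTA9 71.8%. YAF9A and YAF9B share 61.8% of their coding bases. HTA9, PIE1, ARP6 and SWC4 each overlap 1 gene on the opposite strand, and the library kit keeps the strand.

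The 3 H2A.Z genes differ in the stretch that encodes the N-terminal tail, where NuA4 acetylates lysines. The first 90 coding bases of each are shown for this reason, 5′ to 3′, with lysine codons (AAA or AAG) in capitals.
HTA8: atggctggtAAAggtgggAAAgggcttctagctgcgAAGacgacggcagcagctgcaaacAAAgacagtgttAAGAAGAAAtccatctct
HTA9: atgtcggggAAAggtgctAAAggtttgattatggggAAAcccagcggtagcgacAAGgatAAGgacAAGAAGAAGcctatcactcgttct
HTA11: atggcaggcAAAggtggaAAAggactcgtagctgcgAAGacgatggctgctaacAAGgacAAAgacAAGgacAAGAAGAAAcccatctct
These stretches hold 7 lysine codons in HTA8, 8 in HTA9 and 9 in HTA11, of 30 codons each. They lie at chr2:16220590-16220679 on the minus strand, chr1:19645409-19645498 on the plus strand and chr3:20196532-20196621 on the plus strand.

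Levels of different genes were compared in TPM, which counts transcripts per length. The TPM values of the 2 label sets sum to different totals over the genes listed, so the order of the 10 genes is given within each set. HTA9 was the most abundant of the 10 genes in every library, at 17.2 to 17.8 TPM in Atepl1-2 of the first set, 34.3 to 39.97 TPM in Atepl1-2 of the second, 25.6 to 30.1 TPM in Ateaf1-1 and 25.6 to 30.5 TPM in glk, against 13.4 to 16.3 TPM in the WT libraries of the first set and 18.7 TPM in WT replicate 4. In WT of the first set HTA11 came next at a mean of 3.04 TPM, followed by SWC4 at 2.58 and ARP4 at 2.56 TPM, and the ranges of these 3 genes overlapped. YAF9A (1.46 TPM), HTA8 (1.23 TPM) and SEF (1.06 TPM) followed, each overlapping with the next. ARP6 and PIE1 overlapped at 0.600 and 0.495 TPM, and YAF9B, at 0.211 TPM, was below every other member. YAF9B was also the lowest in Ateaf1-1, in glk and in WT replicate 4, whereas ARP6 was the lowest in Atepl1-2 of the first set (0.616 TPM) and PIE1 in Atepl1-2 of the second (1.20 TPM, overlapping with ARP6 and YAF9B).

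**Figure D1:**
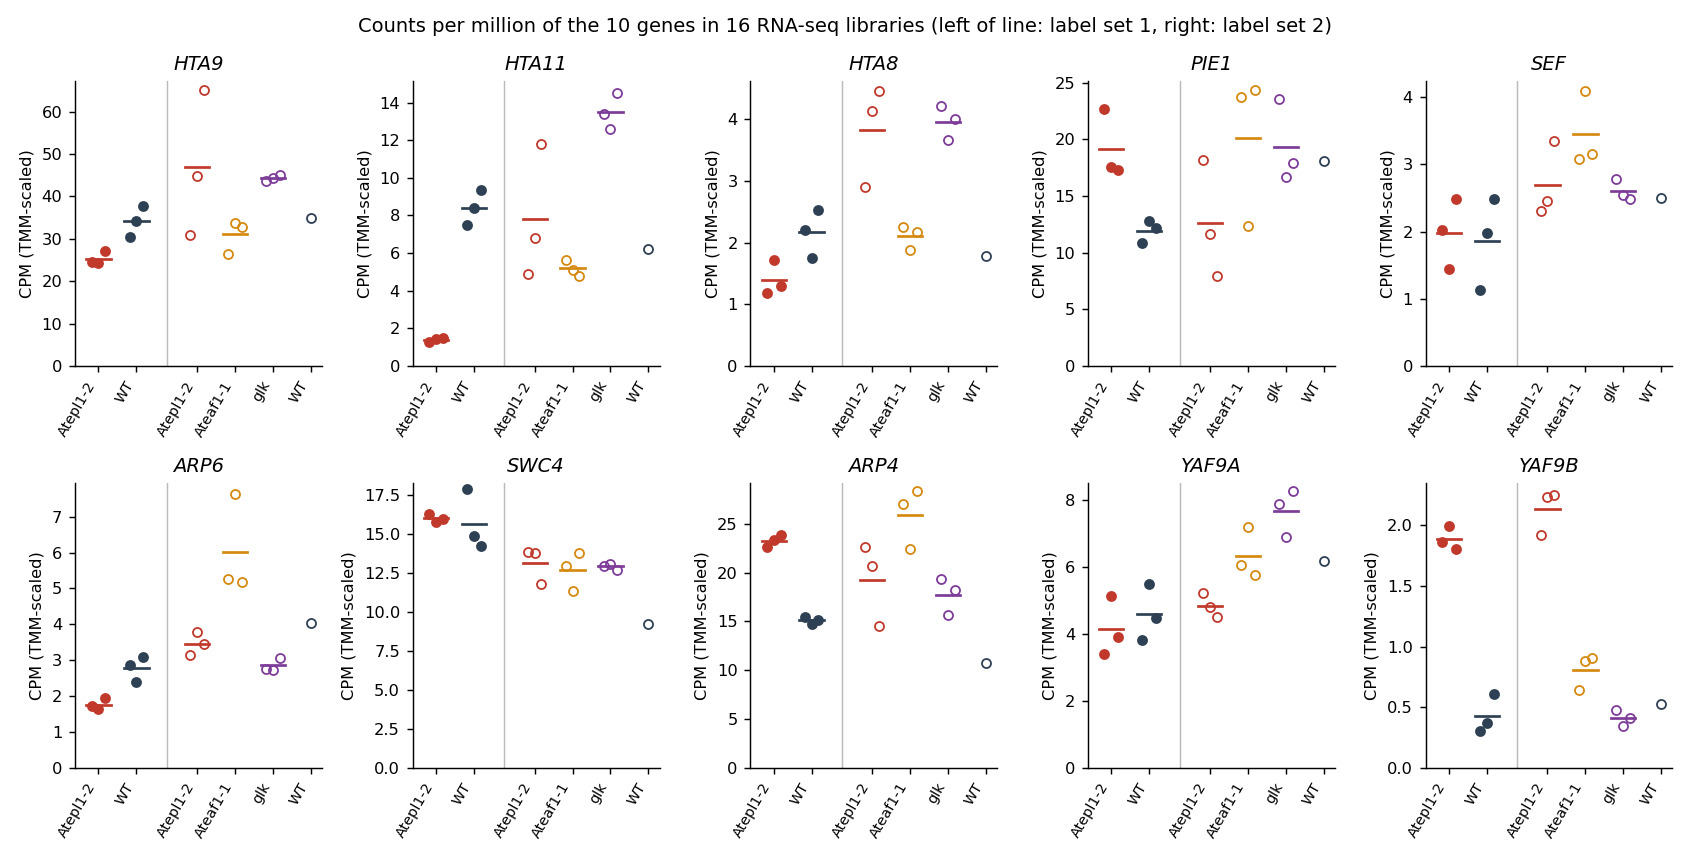
TMM-scaled CPM (vertical axes, linear, from 0) of the 10 genes in each of the 16 libraries, the first label set left of the grey line (filled points) and the second right of it (open points), with short lines at group means. HTA11 sits at 1.26 to 1.47 CPM in Atepl1-2 of the first set and at 7.47 to 9.36 CPM in WT of that set, and YAF9B is above every library of the other genotypes in all 6 Atepl1-2 libraries.

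Groups were compared on counts with edgeR's quasi-likelihood test, and a gene was called when its Benjamini-Hochberg FDR over all genes tested was under 0.01 and its change at least 1.5-fold. Per-library values are given as CPM, counts divided by the TMM-scaled library size, which sets libraries against each other but not genes. For Atepl1-2 of the first set against WT, 4 of the 10 genes were called, 3 higher and 1 lower, where 45.1% of all 18840 genes tested were called. For the second set of Atepl1-2 against WT 2 of 10 were called, both higher, against 30.3% of 20733 genes. In Ateaf1-1 against WT 2 of 10 were called, both higher, against 26.1% of all genes, and in glk against WT 1 of 10, higher, against 11.6%. The median log2 fold change of the 10 genes was −0.09 in Atepl1-2 of the first set, 0.27 in Atepl1-2 of the second, 0.45 in Ateaf1-1 and 0.35 in glk, beside medians over all genes of 0.05, 0.05, 0.07 and 0.02.

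Scaling matters for these counts. On log2(TPM + 1) the median difference of all genes was 0.38 in Atepl1-2 of the first set, 0.50 in Atepl1-2 of the second, 0.56 in Ateaf1-1 and 0.27 in glk, each against WT, and 86.3, 94.4, 94.8 and 71.5% of the calls were higher. On that scale 4, 7, 8 and 3 of the 10 genes were called, beside 7718 of 18840 genes in the first comparison and 8184, 8976 and 1804 of 20733 in the others. The last 3 of these set TPM values of the 2 label sets against each other, since 3 of the 4 WT libraries are of the first set. The first comparison lies within 1 set and was shifted as well. On the TMM scale 4392 genes were called higher and 4111 lower in the first of these comparisons, 3477 and 2795 in the second, 2818 and 2593 in Ateaf1-1, and 867 and 1544 in glk. The called members kept their direction on both scales, and HTA9, HTA8 and ARP6 in Atepl1-2 of the first set, which were lower in CPM, had TPM differences of 0.23, 0.00 and 0.02, all under the median of all genes.

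**Figure D2:**
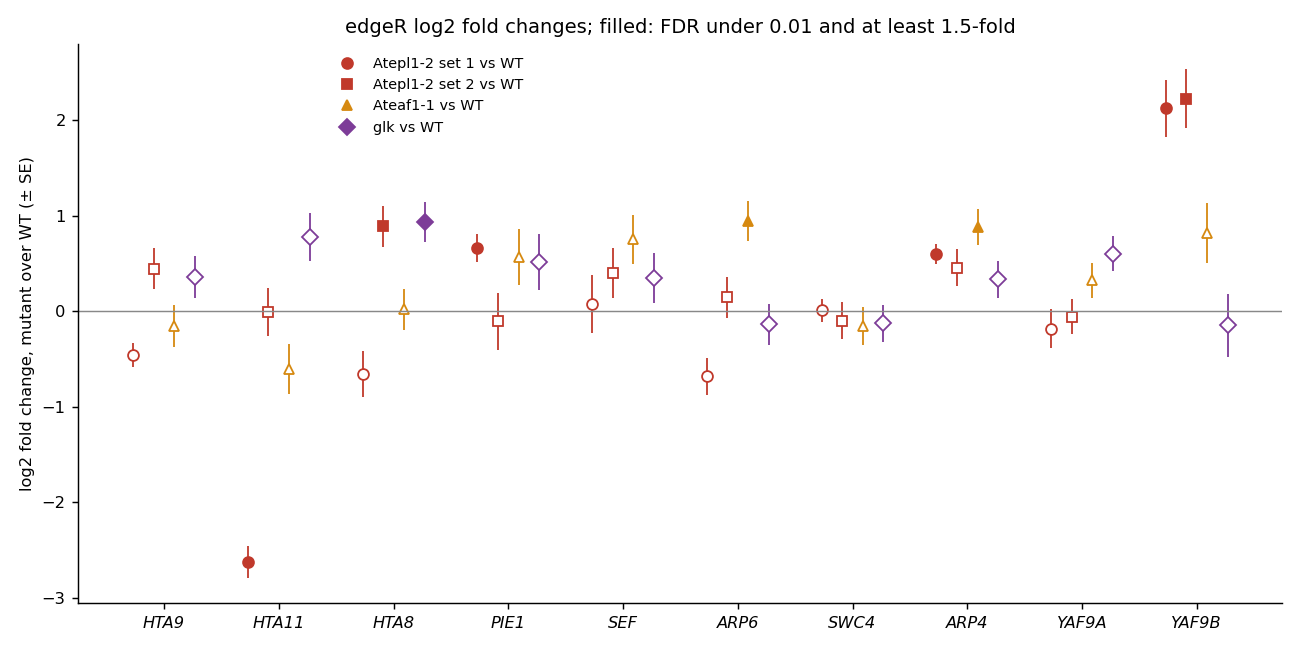
Log2 fold changes of the 10 genes in the 4 comparisons of a mutant with WT, from edgeR, with bars of 1 SE and filled symbols where the FDR is under 0.01 and the change at least 1.5-fold. HTA11 in Atepl1-2 of the first set (−2.62) and YAF9B in Atepl1-2 of both sets (2.12 and 2.22) lie farthest from 0.

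HTA11, 1 of the 3 H2A.Z genes, had the largest fall of the 10 genes. Its level was 1.26, 1.44 and 1.47 CPM in the Atepl1-2 libraries of the first set, against 7.47, 8.42 and 9.36 CPM in the WT libraries of that set. The groups were far apart, with a log2 fold change of −2.62 ± 0.17 (SE, n = 3 each, edgeR FDR 1.51e-06), and this call was kept when any 1 library was left out. As in any RNA from whole leaves, fewer cells that express a gene and less RNA per cell cannot be told apart. The same gene varied widely in Atepl1-2 of the second set, at 4.87, 6.80 and 11.8 CPM, and overlapped with the 4 WT libraries, of which replicate 4 had 6.21 CPM (log2 fold change −0.01 ± 0.25, FDR 0.981). Against WT replicate 4 alone the log2 fold change was 0.32 (FDR 0.585).

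In Ateaf1-1, HTA11 had 5.64, 5.12 and 4.81 CPM, below all 4 WT libraries, but the difference did not pass the test (log2 fold change −0.60 ± 0.26, FDR 0.0735). The glk libraries were the highest of all, at 13.4, 12.6 and 14.5 CPM, above every WT library, with a log2 fold change of 0.77 ± 0.25 that missed the threshold (FDR 0.0389). Over the alternative fits on counts this change ranged from −0.65 to 1.12, so its direction depended on the setting. Between the mutants, HTA11 was lower in Ateaf1-1 than in glk, with a log2 fold change of −1.38 ± 0.27 (FDR 0.00138). Between Atepl1-2 of the second set and glk the difference was −0.78 ± 0.27 (FDR 0.0307), and the 3 Atepl1-2 libraries were below the 3 glk libraries.

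HTA8, the least abundant H2A.Z gene in most groups, was called higher in 2 comparisons. It had 1.18, 1.72 and 1.3 CPM in Atepl1-2 of the first set, against 2.21, 1.76 and 2.54 CPM in the WT libraries of that set. Every Atepl1-2 library was thus below every WT library there, but the change was not called (log2 fold change −0.65 ± 0.24, FDR 0.0377). In the second set the Atepl1-2 libraries had 2.90, 4.13 and 4.46 CPM, above all WT libraries, of which replicate 4 had 1.78 CPM (log2 fold change 0.89 ± 0.21, FDR 0.004).

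In glk HTA8 stood at 4.21, 3.66 and 4.00 CPM, also above all WT libraries (log2 fold change 0.93 ± 0.21, FDR 0.00653). Ateaf1-1, at 2.25, 1.88 and 2.17 CPM, lay within the WT range (log2 fold change 0.02 ± 0.22, FDR 0.948) and below glk (−0.91 ± 0.22, FDR 0.00591; not called when any 1 of the 6 libraries was left out, nor in TPM). Against WT replicate 4 alone the log2 fold change of HTA8 was 1.09 in Atepl1-2 (FDR 0.0336), and that in glk was likewise no smaller than against the 4 WT libraries, but with 1 WT library neither was called. The call in glk was lost without any of 5 libraries, WT replicates 5 and 7 and each of the glk replicates, and that in Atepl1-2 without WT replicate 7, Atepl1-2 replicate 3 or Atepl1-2 replicate 4.

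HTA9, the most abundant H2A.Z gene and the one against which the H2A.Z antiserum was raised, was called in none of the comparisons with WT by edgeR, DESeq2 or limma-voom. It had 24.4, 24.3 and 27.0 CPM in Atepl1-2 of the first set, against 30.4, 34.2 and 37.8 CPM in WT of that set. These groups do not overlap, with a log2 fold change of −0.46 ± 0.12 at an FDR of 0.00851, which is under the 1.5-fold limit.

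HTA9 spread in Atepl1-2 of the second set from 30.8 over 44.7 to 65.2 CPM, around a WT replicate 4 at 34.9 CPM (log2 fold change 0.45 ± 0.22, FDR 0.106). Ateaf1-1 had 26.5, 33.8 and 32.9 CPM and overlapped with WT (−0.15 ± 0.22, FDR 0.599). The glk libraries were close together at 43.6, 44.2 and 45.04 CPM, above all 4 WT libraries, without passing the test (0.36 ± 0.22, FDR 0.258).

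Because the 3 genes were measured in the same library, their shares of the summed H2A.Z TPM do not depend on how the library was scaled. HTA9 supplied 90.8, 87.7 and 90.3% of H2A.Z transcripts in Atepl1-2 of the first set, against 77.3, 79.1 and 76.8% in WT of that set. The difference of 11.9 percentage points (89.6 ± 1.66% against 77.7 ± 1.22%, SD, n = 3 each) had an exact permutation p of 0.1, the smallest that 3 against 3 libraries allow (0.4 after adjustment over 8 tests). HTA11 supplied 4.11 ± 0.189% in Atepl1-2 of the first set and 15.9 ± 0.207% in WT of that set, while the HTA8 share was 6.27 ± 1.496% and 6.37 ± 1.14%.

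In glk the balance lay the other way. HTA9 supplied 71.5, 73.0 and 70.9% of H2A.Z transcripts in glk libraries, below all 4 WT libraries, which averaged 78.6 ± 2.02%. The difference was −6.79 points with an exact permutation p of 0.0286, the smallest possible for 3 against 4, and 0.229 after adjustment, so it did not pass. HTA11 made up 19.1 ± 0.821% in glk against 15.1 ± 1.51% in WT, and HTA8 9.08 ± 0.493% against 6.24 ± 0.964%. The HTA8 share was 9.74 ± 1.49% in Atepl1-2 of the second set and 7.86 ± 0.504% in Ateaf1-1, in both above every WT library. The HTA11 share in Atepl1-2 of the second set, at 11.5 ± 0.970%, was below every WT library, and in Ateaf1-1 it was 11.9 ± 2.19% and overlapped with WT. The HTA9 share was 78.8 ± 0.618% in Atepl1-2 of the second set (exact p = 0.914) and 80.2 ± 2.49% in Ateaf1-1 (exact p = 0.286), and both overlapped with WT.

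**Figure D3:**
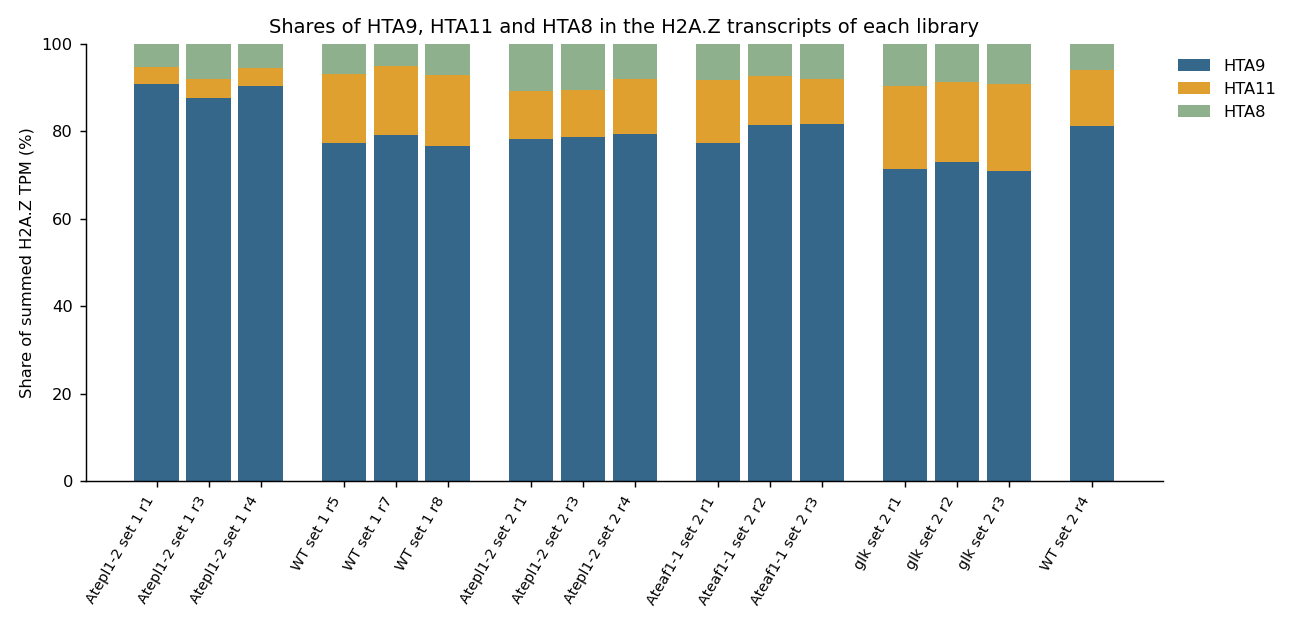
Share (%) of HTA9, HTA11 and HTA8 in the summed TPM of the 3 H2A.Z genes, 1 bar per library, with each mutant of a label set left of the WT of that set. HTA9 reaches 87.7 to 90.8% in Atepl1-2 of the first set and 70.9 to 73.0% in glk.

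The share of H2A.Z among H2A transcripts overlapped between every mutant group and WT. The 3 genes made up 26.6 ± 1.98% of the summed TPM of 13 H2A genes in Atepl1-2 of the first set, against 26.9 ± 1.55% in WT of that set (exact permutation p = 0.8). The share was 26.9 ± 1.70% in Atepl1-2 of the second set, 24.8 ± 3.19% in Ateaf1-1 and 27.0 ± 0.361% in glk, against 26.7 ± 1.36% in the 4 WT libraries, with exact p of 0.886, 0.314 and 0.743. HTA4, a divergent H2A.Z-like gene, was counted with the other H2A genes and is in none of the H2A.Z sums. Its mean was 2.25 TPM in WT of the first set and 0.817 TPM in Atepl1-2 of that set.

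Markers of dividing cells were lower where HTA11 was lowest and higher where it was highest, and their part in these differences was not tested. The 9 markers summed to between 1.71 and 2.31 TPM in Atepl1-2 of the first set, against 3.84 to 5.16 TPM in WT of that set, and 7 of the 8 tested were called lower, with a median log2 fold change of −2.01. In glk they summed to between 16.8 and 22.3 TPM, against 7.75 TPM in WT replicate 4, the WT library of that set, and by counts 8 of 9 were called higher than in the 4 WT libraries (median 1.54). The sums in Atepl1-2 of the second set were 9.70 to 19.3 TPM and 2 of 9 were called higher, and in Ateaf1-1 they were 8.75 to 18.6 TPM with 1 of 9 called higher. Ateaf1-1 went apart from this pattern, with HTA11 below all 4 WT libraries, marker sums above that of WT replicate 4 and a marker median of 0.09. Of all genes, 45.1% were called in Atepl1-2 of the first set, 11.6% in glk, 30.3% in Atepl1-2 of the second set and 26.1% in Ateaf1-1, in either direction. None of the 9 markers was at 0 throughout a group.

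Flower and epidermis markers also stood high in glk, and their part in the values of HTA8, HTA9 and HTA11 there was not tested. The 2 flower markers summed to between 1.43 and 1.90 TPM in glk, against 0.0429 TPM in WT replicate 4. Of them AP3, a floral organ identity gene, had 82, 90 and 116 counts in glk and 12, 0 and 3 in Ateaf1-1, against 0 in all 4 WT libraries, and was called higher in glk (FDR 0.00147). PDF1, expressed in the epidermis, had 16.9 to 23.6 CPM in glk, 7.68 to 17.6 CPM in Ateaf1-1 and 5.75 to 8.05 CPM in Atepl1-2 of the second set, against 4.71 CPM in WT replicate 4 and at most 0.483 CPM in the other WT libraries. It was called higher in glk (FDR 0.00541) and in Ateaf1-1 (FDR 0.00975), while the other epidermis marker, ATML1, was called in neither.

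PIE1 encodes the ATPase of SWR1. It was at 22.7, 17.6 and 17.3 CPM in Atepl1-2 of the first set, against 10.8, 12.8 and 12.2 CPM in WT of that set. All 3 Atepl1-2 libraries were higher, with a log2 fold change of 0.66 ± 0.14 (SE, n = 3 each, edgeR FDR 0.00291). Without Atepl1-2 replicate 1 or without WT replicate 5 the gene was no longer called.

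In the second set PIE1 varied widely between replicates of 1 genotype. The Atepl1-2 libraries had 18.2, 11.6 and 7.95 CPM, the Ateaf1-1 libraries 23.7, 12.4 and 24.3 CPM and the glk libraries 23.6, 16.6 and 17.9 CPM, against 18.1 CPM in WT replicate 4. None of the 3 mutants differed from the 4 WT libraries by the test (log2 fold changes −0.11 ± 0.30, 0.57 ± 0.29 and 0.51 ± 0.29, FDR 0.795, 0.137 and 0.236).

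The spread of PIE1 within a genotype went along with transcript length. Within the Atepl1-2 libraries of the second set, the 274 measured genes with transcripts of at least 5000 bases deviated from their group mean by a median of 0.57, 0.12 and −0.68 (log2 CPM) in replicates 1, 3 and 4, and the 1536 genes with transcripts under 1000 bases by −0.36, −0.13 and 0.49. PIE1 deviated there by 0.61, −0.03 and −0.58, and the short genes HTA9 by −0.54, 0.00 and 0.54 and HTA11 by −0.58, −0.11 and 0.69. In Ateaf1-1 replicate 2 the long genes were at −0.21 and PIE1 at −0.64.

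Differences between groups carried the same feature. Long genes had a median difference of 0.36 in Atepl1-2 of the first set, −0.31 in Atepl1-2 of the second, 0.36 in Ateaf1-1 and 0.16 in glk, each against WT, where short genes had −0.11, 0.38, −0.09 and 0.05. The rise of PIE1 in Atepl1-2 of the first set stood beside the first of these values. In Atepl1-2 of the second set the short genes HTA8, HTA9 and HTA11 had log2 fold changes of 0.89, 0.45 and −0.01, beside the 0.38 of short genes. The part of transcript length in any of these was not tested.

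**Figure D4:**
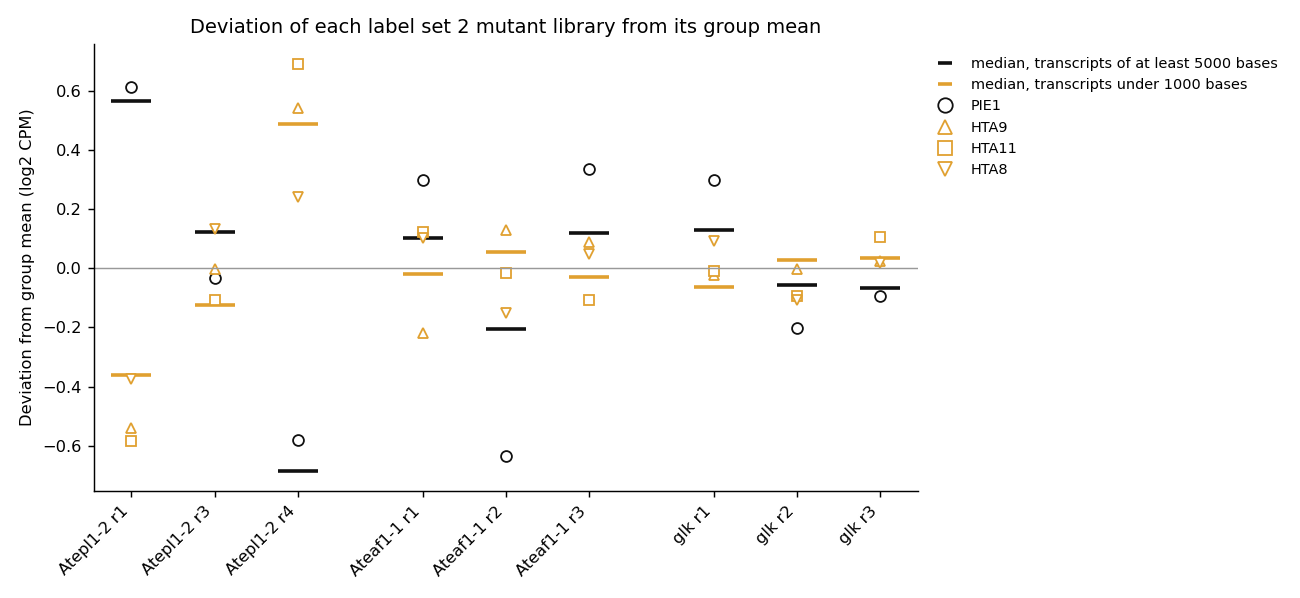
Deviation of each mutant library of the second label set from the mean of its genotype (log2 CPM), as bars for the median of long and of short transcripts and as symbols for PIE1, HTA9, HTA11 and HTA8. In Atepl1-2 PIE1 and the long genes are highest in replicate 1 and lowest in replicate 4, and HTA9 and HTA11 are lowest in replicate 1 and highest in replicate 4.

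ARP6 encodes an actin-related protein of SWR1 that is needed for H2A.Z deposition in Arabidopsis. It stood apart in Ateaf1-1, at 5.25, 7.64 and 5.18 CPM, against 2.87, 2.40 and 3.08 CPM in WT of the first set and 4.03 CPM in WT replicate 4. All Ateaf1-1 libraries were above all WT libraries (log2 fold change 0.94 ± 0.21, FDR 0.0029). They were also above glk, which had 2.76, 2.73 and 3.06 CPM (1.08 ± 0.22, FDR 0.00205). The call against WT was lost without WT replicate 7 or Ateaf1-1 replicate 2, and against WT replicate 4 alone the log2 fold change was 0.58 (FDR 0.2).

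In Atepl1-2 ARP6 was not called. In the first set its libraries had 1.71, 1.63 and 1.93 CPM, below all 3 WT libraries of that set, with a log2 fold change of −0.68 ± 0.19 that missed the threshold (FDR 0.0119). In the second set they had 3.14, 3.79 and 3.44 CPM and overlapped with WT (0.15 ± 0.21, FDR 0.604). The difference of Atepl1-2 of the second set from Ateaf1-1 was −0.80 ± 0.22, with an FDR of 0.0575 and no overlap between the groups.

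SEF, a zinc-finger subunit of SWR1 also known as SWC6, was called in no comparison by edgeR, DESeq2 or limma-voom. It had 2.02, 1.44 and 2.48 CPM in Atepl1-2 of the first set, against 1.14, 1.97 and 2.48 CPM in WT of that set (log2 fold change 0.07 ± 0.30). In the second set it had 2.30, 2.45 and 3.34 CPM in Atepl1-2, 3.08, 4.09 and 3.16 CPM in Ateaf1-1 and 2.78, 2.55 and 2.49 CPM in glk, against 2.49 CPM in WT replicate 4. The 3 Ateaf1-1 libraries were above every WT library, with a log2 fold change of 0.75 ± 0.26 and an FDR of 0.032.

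ARP4, an actin-related protein of both complexes, was called higher in Atepl1-2 of the first set and in Ateaf1-1. It had 22.6, 23.4 and 23.9 CPM in Atepl1-2 of the first set, against 15.5, 14.8 and 15.1 CPM in WT of that set. The replicates of each group lay within about 1 CPM of each other and the groups were clearly apart, with a log2 fold change of 0.60 ± 0.10 (FDR 7.26e-04), only just over 1.5-fold. Leaving out Atepl1-2 replicate 4 or WT replicate 7 took it under that limit.

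In Ateaf1-1 ARP4 reached 27.0, 22.5 and 28.3 CPM, above all WT libraries, of which replicate 4 was the lowest at 10.8 CPM (log2 fold change 0.88 ± 0.19, FDR 0.0022; not called without Ateaf1-1 replicate 3). Atepl1-2 of the second set had 22.6, 20.7 and 14.5 CPM and overlapped with WT (0.46 ± 0.19, FDR 0.0619). The glk libraries, at 19.3, 15.6 and 18.3 CPM, lay above the WT libraries without passing the test (0.33 ± 0.19, FDR 0.232).

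SWC4, a DNA-binding subunit of both complexes, was called in none of the comparisons by edgeR, with WT libraries that ranged from 9.23 to 17.9 CPM. It had 16.3, 15.8 and 16.0 CPM in Atepl1-2 of the first set, against 17.9, 14.9 and 14.3 CPM in WT of that set (log2 fold change 0.01 ± 0.12). In the second set it ranged from 11.8 to 13.8 CPM in Atepl1-2, 11.3 to 13.8 CPM in Ateaf1-1 and 12.7 to 13.1 CPM in glk, against 9.23 CPM in WT replicate 4. The log2 fold changes there were −0.10 ± 0.19, −0.15 ± 0.19 and −0.13 ± 0.19 against the 4 WT libraries, and each group overlapped with the WT range. All these mutant libraries were above WT replicate 4, however, and the sign depended on the setting. In alternative fits on counts the changes reached 0.50 in Atepl1-2, 0.45 in Ateaf1-1 and 0.48 in glk.

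YAF9A and YAF9B encode YEATS-domain proteins of both complexes and behaved differently from each other. YAF9B, hardly expressed in WT leaves, had 1.87, 2.00 and 1.81 CPM in Atepl1-2 of the first set, against 0.299, 0.373 and 0.604 CPM in WT of that set. In counts these are 49, 43 and 43 in Atepl1-2 and 5, 7 and 10 in WT, so the WT values rest on few reads. The log2 fold change was 2.12 ± 0.29 (FDR 1.88e-04).

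The second set gave nearly the same values for YAF9B, 1.92, 2.24 and 2.25 CPM in Atepl1-2, against 0.523 CPM in WT replicate 4. All 6 Atepl1-2 libraries were above all libraries of the other genotypes, and the log2 fold change against the 4 WT libraries was 2.22 ± 0.31 (FDR 6.67e-05). This call was kept when any 1 library was left out and against WT replicate 4 alone. Ateaf1-1 was in between, at 0.641, 0.878 and 0.908 CPM, above every WT library but not called (log2 fold change 0.82 ± 0.31, FDR 0.0496). The glk libraries had 0.478, 0.345 and 0.407 CPM, within the WT range (−0.15 ± 0.33, FDR 0.789).

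YAF9A was called in no comparison by edgeR. It had 3.39, 5.11 and 3.91 CPM in Atepl1-2 of the first set, against 3.82, 5.49 and 4.47 CPM in WT of that set, with the groups overlapping (−0.18 ± 0.20, FDR 0.453). In the second set it had 5.20, 4.79 and 4.51 CPM in Atepl1-2, 6.04, 7.17 and 5.76 CPM in Ateaf1-1 and 7.86, 6.88 and 8.26 CPM in glk, against 6.18 CPM in WT replicate 4. The glk libraries were above all WT libraries, with a log2 fold change of 0.60 ± 0.18 and an FDR of 0.0287.

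Comparisons among the mutants of the second set use no WT library in their difference. In Atepl1-2 against glk, 1 of the 10 genes was called (27.0% of all genes), which was YAF9B with a log2 fold change of 2.37 ± 0.32 (FDR 6.07e-05). YAF9A went the other way there at −0.66 ± 0.19, short of the threshold (FDR 0.0144). In Ateaf1-1 against glk, 3 of 10 were called (21.7% of all genes), ARP6 higher and HTA11 and HTA8 lower, as given above. Without glk replicate 1 or without glk replicate 2, HTA11 was the only one of these still called.

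Between the 2 NuA4 mutants, Atepl1-2 of the second set and Ateaf1-1, none of the 10 genes was called by edgeR, where 0.130% of all genes were. At an unadjusted edgeR p under 0.05, 4 were higher and 1 lower in Atepl1-2, where 5533 of all 20733 genes passed in either direction. DESeq2 called 2, HTA8 and YAF9B, and limma-voom 0. The largest differences were in YAF9B, at 1.40 ± 0.30 (FDR 0.0322), HTA8, at 0.87 ± 0.22 (FDR 0.0475), and ARP6, with the value given above. For these 3 genes the groups did not overlap, nor did they for YAF9A (−0.38 ± 0.19, FDR 0.219). The share of all genes with groups apart is not given here. The long transcripts differed by a median of −0.67 and those under 1000 bases by 0.46 between these groups. The transcript of HTA8, at 879 bases, is among the short ones, while that of YAF9B, at 1184 bases, is not. The part of transcript length in these differences was not tested.

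Whether a change in Atepl1-2 differed between the label sets was tested in a fit of the 10 Atepl1-2 and WT libraries, in which 5.08% of 21262 genes passed at an FDR under 0.05. Among the 10 genes HTA11 and HTA8 did. For HTA11 the change in the second set exceeded that in the first by 2.92 ± 0.53 on the log2 scale (FDR 0.0122), and against WT replicate 4 alone it was 0.32 ± 0.39 (FDR 0.557). For HTA8 the difference was 1.72 ± 0.45 (FDR 0.0493), with a change of 1.09 ± 0.36 against WT replicate 4 (FDR 0.037). The changes of YAF9B in the 2 sets were close, with a difference of −0.13 ± 0.50 (FDR 0.911), and that of PIE1 was −1.21 ± 0.43 (FDR 0.118). The mutated genes differed between the sets as well, EPL1A by −1.68 ± 0.34 (FDR 0.0195) and EPL1B by −1.76 ± 0.28 (FDR 0.00708). Because 1 WT library stands for WT in the second set, its own deviation cannot be told apart from the difference between sets. The medians of long and of short genes given above also changed sign between the Atepl1-2 sets, and their part here was not tested.

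Other genes of the pathway were read from lists. Of 13 partners of SWR1 or H2A.Z beyond the 10 genes, 4 of 11 tested were called higher in Atepl1-2 of the first set by edgeR (median log2 fold change 0.53), where 45.1% of all genes were called in either direction. Higher were 1 of 12 in Atepl1-2 of the second set (median 0.23), in Ateaf1-1 2 of 12 (0.57) and in glk 2 of 12 (0.43), beside 30.3, 26.1 and 11.6% of all genes.

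Among them were the histone chaperones NRP1 (AT1G74560) and NRP2 (AT1G18800). NRP1 had 22.8, 23.5 and 25 CPM in Atepl1-2 of the first set, against 14.5, 14.0 and 16.5 CPM in WT of that set (log2 fold change 0.64 ± 0.11, FDR 8.58e-04). It was also called higher in Ateaf1-1 (0.59 ± 0.14, FDR 0.00435) and in glk, where it reached 27.7 to 29.4 CPM (0.92 ± 0.14, FDR 4.88e-04), and in Atepl1-2 of the second set its change of 0.50 ± 0.14 was under 1.5-fold (FDR 0.00981). NRP2 was called higher in Atepl1-2 of both sets (0.73 ± 0.14 and 0.61 ± 0.16) and in glk (0.89 ± 0.16). RVB2A (AT5G67630), an ATPase of the RuvB type, had 15.6, 15.3 and 16.6 CPM in Atepl1-2 of the first set, against 6.81, 7.40 and 9.60 CPM in WT of that set (0.97 ± 0.14, FDR 2.71e-04). ARP5 (AT3G12380), an actin-related protein of the INO80 remodeller, was called higher in the same comparison (0.68 ± 0.15, FDR 0.0029), and neither of these was called in the others.

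A list of 12 further NuA4 genes had 7 members higher in Atepl1-2 of the first set (median 0.77), 1 in Atepl1-2 of the second (0.33), and 5 in Ateaf1-1 (0.56), while in glk the median was 0.25 with no call by edgeR. The shares of all genes called were the 45.1, 30.3 and 26.1% given above. EPL1B (AT1G79020), itself mutated in Atepl1-2, had a log2 fold change of 2.00 ± 0.15 there in the first set (FDR 4.32e-06) and of 1.11 ± 0.22 in Ateaf1-1 (FDR 0.00119), and in Atepl1-2 of the second set it was not called (0.73 ± 0.22, FDR 0.0143). EPL1A (AT1G16690), the other gene mutated in Atepl1-2, was called higher in the first set (1.01 ± 0.19, FDR 0.00114) and not in the second (−0.42 ± 0.20, FDR 0.112). MRG2 (AT1G02740), a chromodomain protein, was called in both Atepl1-2 sets (1.08 ± 0.16 and 0.88 ± 0.21). TRA1B (AT4G36080), the large activator-binding subunit, was called in Atepl1-2 of the first set (0.86 ± 0.14) and in Ateaf1-1 (1.21 ± 0.28). In earlier work cited by the study, AtTRA1 was also recovered with parts of complexes that exchange H2A for H2A.Z. HAM1 (AT5G64610), a catalytic subunit, was called in Ateaf1-1 (0.80 ± 0.14).

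Of the 10 other H2A genes, 1 was higher and 4 lower in Atepl1-2 of the first set (median −0.58), and 3 higher and 2 lower in Atepl1-2 of the second (0.60). In Ateaf1-1 1 was higher and 2 lower (−0.06), and in glk 1 was lower (0.55). Called in either direction in these comparisons were 45.1, 30.3, 26.1 and 11.6% of all genes. HTA6 (AT5G59870), an H2A.W gene, fell in the first set, to 3.85, 3.21 and 4.71 CPM in Atepl1-2, against 19.1, 17.8 and 23.5 CPM in WT of that set (log2 fold change −2.38 ± 0.17, FDR 2.89e-06). HTA1 (AT5G54640), a canonical H2A gene, was called higher in Atepl1-2 of both sets and in Ateaf1-1 (0.77 ± 0.16, 1.28 ± 0.24 and 0.90 ± 0.24). HTA2 (AT4G27230) was lower in Atepl1-2 of the first set (−0.70 ± 0.13, FDR 0.00106). HTA4 (AT4G13570) had 25, 13 and 10 counts in Atepl1-2 of the first set, against 58, 68 and 53 in WT of that set, but at most 2 counts in any mutant library of the second set, against 6 in WT replicate 4. The lower call in glk was HTA4, at 0 CPM there and in Ateaf1-1. WT had 3.20 to 3.62 CPM in the first set and 0.185 CPM in replicate 4, so label set and genotype cannot be told apart for this gene.

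The likeness of expression patterns was measured over all 16 libraries, as the root mean square difference of log2 CPM centred on each gene's mean, among 14653 genes. The genes most like HTA9 were AT5G27770 (0.11), the ribosomal protein gene RPS18C (AT4G09800, 0.13) and the telomere-binding factor gene TRB3 (AT3G49850, 0.14), where the SD of HTA9 itself was 0.37. Their transcripts are 788, 802 and 1571 bases long. Nearest to PIE1, whose SD was 0.46, came the histone methyltransferase gene SDG25 (AT5G42400, 0.12), the remodeller gene PKL (AT2G25170, 0.14) and AT3G16840 (0.16), with transcripts of 5364, 4524 and 2908 bases. Within the 10 genes the pairs most alike were HTA8 with HTA9 (0.34) and SWC4 with ARP4 (0.36), and the least alike were HTA11 and YAF9B (1.88). These values are a description, since the libraries share genotypes and label sets.

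The product of HTA9 was also measured in chromatin, by ChIP-seq of Atepl1-2 and WT leaves to which mouse chromatin had been added as a spike-in. The fewer Arabidopsis fragments an antibody recovers, the larger the share of mouse reads. With the H2A.Z antibody mouse reads made up 11.01 and 10.11% in Atepl1-2, against 6.601 and 6.161% in WT, of all reads left after duplicates were removed. The difference of 4.18 points (10.6 ± 0.636% against 6.38 ± 0.311%, SD, n = 2 each) had an exact permutation p of 0.333, the smallest that 2 against 2 libraries allow.

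These libraries also differed in duplicates. Of the mapped Arabidopsis reads, 63.5 and 72.0% were duplicates in Atepl1-2 and 11.6 and 15.2% in WT, which left 2069155 and 2038346 reads in Atepl1-2 and 11366608 and 16278035 in WT. The part of duplicates in the spike-in difference was not tested, since mouse reads are, per the study's methods, counted after duplicate removal. Replicates of both genotypes that the study set aside for low coverage are not analysed here. In the study's supplement, the set-aside WT replicate of the H2A.Z antibody had a larger mouse share than both Atepl1-2 libraries given here. The set-aside Atepl1-2 replicate of that antibody had a larger share still. With these replicates the groups of this antibody overlap.

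With the antibody to acetylated H2A.Z the mouse share was 65.4 and 63.5% in Atepl1-2, against 26.9 and 53.0% in WT, with 79.5 and 71.8% duplicates in Atepl1-2 and 15.6 and 20.8% in WT (exact p = 0.333). The WT replicate of this antibody that the study set aside lay, in its supplement, between the 2 Atepl1-2 libraries. For H3 it was 3.636, 3.096 and 2.998% in Atepl1-2, against 3.27, 3.65 and 4.25% in WT, with overlapping groups (exact p = 0.2), but the H3 libraries carry the labels of the first set and those of both H2A.Z antibodies the labels of the second. The H3 duplicates were 27.8 to 33.3% in Atepl1-2 and 27.8 to 32.1% in WT.

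**Figure D5:**
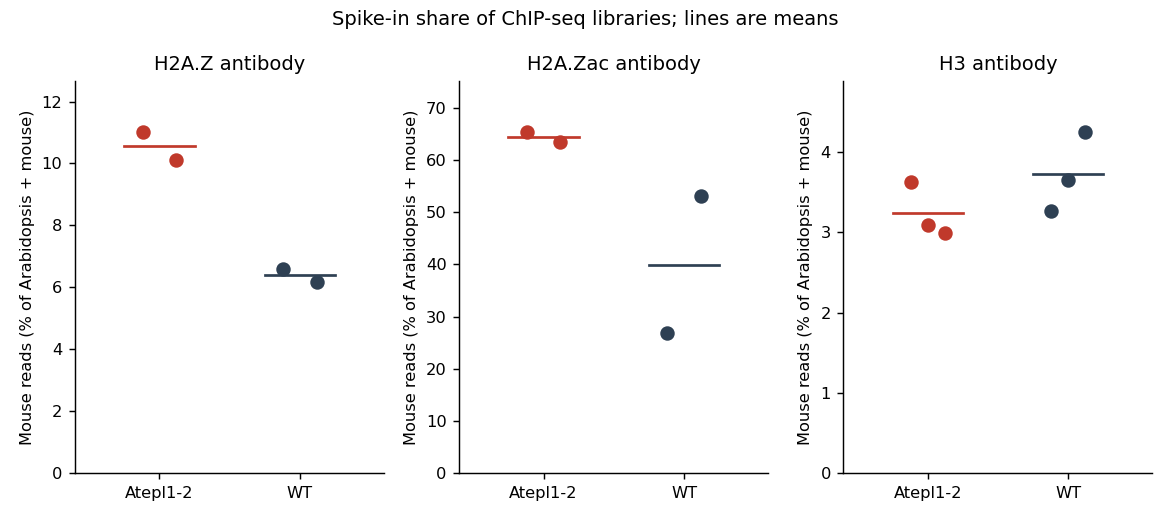
Mouse reads as a share (%) of Arabidopsis plus mouse reads left after duplicate removal, 1 point per ChIP-seq library with lines at group means, for 3 antibodies on separate linear axes that start at 0. The H2A.Z libraries of Atepl1-2 lie at 11.01 and 10.11% and those of WT at 6.601 and 6.161%, and the H3 groups overlap. Replicates that the study set aside are not shown.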

How the data were processed

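Per the labels and the methods of the study, RNA was sequenced from total-RNA libraries of a stranded kit after rRNA removal. The authors trimmed reads with BBDuk2, quantified Araport11 transcripts with Salmon (0.13.1 in the submitters' processing notes, another version in the study's reporting form) and deposited estimated counts per gene, as whole numbers, and TPM values per gene. The deposited TPM sums were 955462 to 979577 per library in the first label set and 1000000 in the second, over the genes listed. For ChIP-seq the authors mapped reads to the Arabidopsis and mouse genomes with BWA 0.7.17, removed duplicates with Sambamba and deposited counts of total, mapped, duplicate, remaining and mouse reads.

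Samples were grouped by genotype and by kind of label. The test on counts was the quasi-likelihood test of edgeR 4.0.16 under R 4.3.3, after filterByExpr and TMM. The first label set was fitted alone (6 libraries, 18840 genes) and the other comparisons in 1 fit of 13 libraries (20733 genes). SEs were derived from the fold change and the F statistic. On simulated data 66.2% of 2-fold and 98.2% of 4-fold changes were found in the first fit, and 11.9% and 82.9% in the second. Python 3.11.15 (pandas 2.3.3, numpy 2.4.6, scipy 1.17.1, matplotlib 3.10.9) served for the figures and for exact permutation tests, two-sided, of shares and ChIP-seq fractions. Coding sequences were aligned with biopython 1.88. Named from the lists were at most 4 genes each, called in at least 1 comparison with WT, with the smallest FDR first.

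Alternatives were DESeq2 1.42.0, its size factors, no count filter, limma-voom and limma 3.58.1 on log2(TPM + 1) and log2(TPM + 0.1), an FDR of 0.05, organelle genes left out, other choices of WT, fits of 2 groups, the label set as a term, a replicate block, shares of counts in place of TPM, other ChIP-seq measures, and each replicate left out. The 10 genes and the lists were chosen with earlier results of these data known. ChIP-seq of other marks was not used here.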

Additional observations from a re-analysis of the deposited data

Results flagged for a closer look

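The change of HTA11 in Atepl1-2 against WT differed between the label sets by 2.92 on the log2 scale (edgeR interaction term, FDR 0.0122), and that of HTA8 by 1.72 (FDR 0.0493). Both rest on a single WT library in the second set. ARP4 in WT replicate 4 of the second set, at 10.8 CPM, lay far from the other 3 WT libraries at 14.8 to 15.5 CPM, with a gap to the nearest of 0.847 of the whole range, over the limit of Dixon's test for 4 samples. A gap of this size comes up by chance in about 1 in 20 groups, and 12 WT groups were tested. Without that library the log2 fold change of ARP4 in Ateaf1-1 was 0.77 (FDR 0.0033) and it was still called.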

How the results depend on the processing

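Counts of the 10 genes called moved with the setting. The fit with the label set as a term holds 1 Atepl1-2 effect for both sets, so that it says little of the second set alone, and the TPM totals of the sets differ. For Atepl1-2 of the first set 4 were called, 5 on log2(TPM + 0.1), 6 at an FDR of 0.05 and 3 to 4 without 1 replicate. For Atepl1-2 of the second set 2 became 7 on log2(TPM + 1), 8 on log2(TPM + 0.1), 3 with the label set as a term, 1 against WT replicate 4 alone, 1 in a fit of 2 groups and 1 to 2 without 1 replicate. In Ateaf1-1 2 became 8 and 9 on the TPM scales, 4 at an FDR of 0.05, 1 with the label set as a term, 0 against WT replicate 4, 1 in a fit of 2 groups and 1 to 2 without 1 replicate. In glk 1 became 3 on both TPM scales and at an FDR of 0.05, 0 with limma-voom, with the label set as a term and against WT replicate 4, 2 in a fit of 2 groups and 0 to 2 without 1 replicate.

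With Atepl1-2 of the second set against glk 1 became 2 with DESeq2, limma-voom, a fit of 2 groups and the replicate block, 3 at an FDR of 0.05 and 1 to 2 without 1 replicate. In Ateaf1-1 against glk 3 became 4 with the replicate block, 2 on both TPM scales and with no count filter, and 1 to 2 without 1 replicate, HTA8 being lost in each of these but the block. With Atepl1-2 of the second set against Ateaf1-1 0 became 2 with DESeq2 and at an FDR of 0.05, 1 on log2(TPM + 1), and stayed 0 with the replicate block and without any replicate. Fits of the 9 mutant libraries of the second set without the block, chosen after seeing the data, gave 2 calls for Atepl1-2 against glk. Libraries of the same number did not deviate together (r = −0.0868 to 0.154), so the numbers were not taken as pairs. No paired analysis was possible because WT shares fewer than 2 replicate numbers with any mutant, for the comparisons with WT.

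Where a gene was called in the main fit or the alternative, directions turned for HTA8 in Atepl1-2 of the second set with the label set as a term (−0.077, an average over both sets), for HTA11 there on the TPM scales (0.70 and 0.85) and SWC4 (0.87), and in Ateaf1-1 for HTA9 (0.76 and 0.80) and SWC4 (0.70 and 0.89), where all genes shifted by 0.50 and 0.88, and by 0.56 and 0.96. Changes that were not called turned on counts as well. Among them, the lowest values over the alternatives were −0.65 for HTA11 and −0.17 for HTA9 in glk and −0.70 for HTA8 in Ateaf1-1. In Atepl1-2 of the second set they were −0.52 for ARP6 and −0.19 for HTA9. Without 1 replicate the HTA9 share differed from WT by 11.3 to 12.8 points in Atepl1-2 of the first set, −0.44 to 1.05 in the second, 0.825 to 3.01 in Ateaf1-1 and −7.41 to −5.91 in glk. For the HTA9 share of H2A.Z TPM, glk minus WT, the values were −6.64, −7.40 and −6.34 without glk replicates 1, 2 and 3, −7.22, −6.62 and −7.41 without WT replicates 5, 7 and 8, and −5.91 without WT replicate 4, with exact permutation p of 0.0667 or 0.1, the smallest these sizes allow. The difference in H2A.Z ChIP mouse fraction was 3.73 to 4.63 points without 1 replicate. Setting mouse reads, counted without duplicates, over Arabidopsis reads with duplicates gave −1.89, which is not like for like and is no estimate of the difference. The causes were not tested. Changes in YAF9B rest on 5 to 17 counts per WT library, which limits their precision, and 2-fold changes were often missed in simulated data of the 13-library fit.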
